A study of Rattus norvegicus with 6 samples.

Results

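The hemisphere opposite an ischemic stroke was compared with the brain of Sham-operated rats, in nuclei from the same coronal levels. The libraries were chosen by their labels: mMCAO contra and sMCAO contra, against Sham L and Sham R. Nuclei were then assigned to cell classes by marker genes, and 29972 of the 49434 nuclei that passed the filters in these 4 libraries were assigned, out of 69967 nuclei in all 6 libraries of the series. The assigned nuclei numbered 7436 and 6813 in Sham (L, R), and 9365 and 6358 in mMCAO contra and sMCAO contra.

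All libraries came from wild type male Wistar rats, 12 weeks old, and were collected 48 h after the operation. In the MCAO rats a filament permanently closed the right middle cerebral artery (MCAO, middle cerebral artery occlusion). Sham rats went through the operation without the filament. mMCAO contra is the left hemisphere of 3 pooled rats with moderate infarctions, sMCAO contra the left hemisphere of 4 pooled rats with severe infarctions, and Sham L and Sham R are the left and right hemispheres of the same 4 pooled rats. Each library is thus 1 pool, both groups consist of 2 libraries, the 2 Sham libraries share their animals, and the 2 contralateral libraries differ in severity. The p-values measure only the spread between these libraries. The infarcted right hemispheres of the same MCAO rats, mMCAO ipsi and sMCAO ipsi, entered no comparison and are given as reference values.

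A stroke is known to act beyond the infarct, since the hemispheres are joined by callosal axons and share blood, cerebrospinal fluid and hormones. Neurons adjust genes that follow electrical activity, many of which carry a binding site for the activity-dependent factor CREB in their promoters. Microglia, the resident macrophages of the brain, proliferate and leave their surveying state when tissue is damaged. In nuclei isolated from brain, RNA set free from broken cells enters every droplet, and because neurons hold most of the RNA, glial droplets carry neuronal transcripts that the glia did not make.

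The 4 libraries held 34519202 to 52513380 UMIs (unique molecular identifiers, each counting 1 captured transcript) in 10803 to 14508 nuclei, and the median nucleus within the limits held 2271.5 UMIs in Sham R, 2864 in sMCAO contra, 3031 in Sham L and 3360 in mMCAO contra. Sham R was thus the shallowest library. Any 2 of the 6 libraries shared 118 to 281 cell barcodes, at most 2.18% of the smaller library. Clusters made without the gate placed 93.5% of gated glutamatergic neurons, 89.2% of medium spiny neurons, 74.2% of GABAergic interneurons, 93.5% of astrocytes, 76.1% of oligodendrocyte precursor cells (OPCs), 94.2% of oligodendrocytes and 97.9% of myeloid nuclei in a cluster of the same name. Between 32.0% of nuclei in mMCAO contra and 47.4% in Sham R reached the marker limits of no class.

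Myeloid nuclei, the class that holds microglia and macrophages, made up a larger share of the contralateral libraries than of the Sham libraries. There were 7 of them among 12469 nuclei in Sham L (0.0561%, exact 95% interval 0.0226 to 0.116%) and 13 among 12945 in Sham R (0.100%, 0.0535 to 0.172%). mMCAO contra held 190 among 13766 nuclei (1.38%, 1.19 to 1.59%) and sMCAO contra 132 among 10254 (1.29%, 1.08 to 1.52%). The 2 groups did not overlap, the mean share was 17.0 times as high contralaterally (9.41 times with clusters in place of the gate), and the infarcted hemispheres held 7.49% and 19.1%. The gate took a smaller part of the main myeloid cluster in Sham. That cluster held 27 and 18 nuclei in Sham (L, R) and 231 and 149 contralaterally, doublets included. Of these the gate took 4 and 8 in Sham and 176 and 113 contralaterally. The part of the gate in the ratio of 17.0 was not tested further. These intervals, like all intervals on shares and UMIs here, cover counting error only, and with 2 libraries against 2 an exact two-sided permutation test cannot go below p = 0.333. Only 7 of the 190 and 5 of the 132 contralateral myeloid nuclei had a barcode that also occurred in an infarcted library, and 1 of these barcodes belonged to a myeloid nucleus there. The median myeloid nucleus held 747 and 582 UMIs in Sham (L, R), and 678 and 689.5 in mMCAO contra and sMCAO contra, close to the limit of 500 UMIs per nucleus, so nuclei of lower content were not counted in either group. In shares of nuclei, fewer nuclei of a class and less RNA per nucleus cannot be told apart near such a limit. The study describes its nuclei isolation as prone to leave out immune cells. It names the scarcity of myeloid cells from tissue without a lesion as a limit of that method. The shares are thus those of captured nuclei and not of cells in the tissue.

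**Figure D1:**
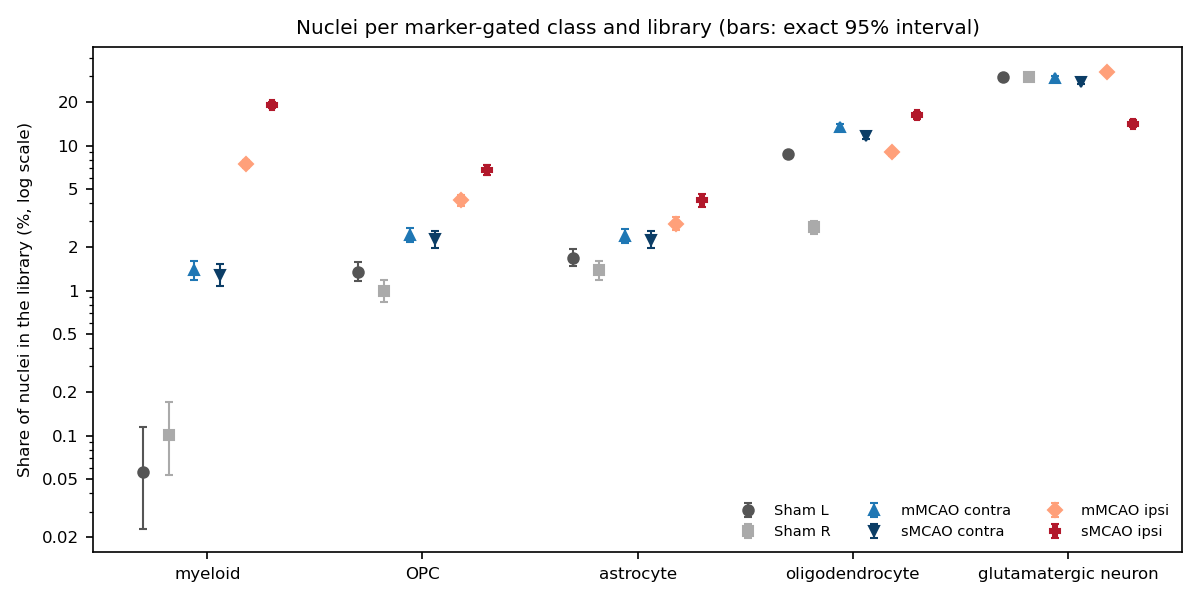
Share of each cell class among the nuclei of a library (percent, log scale), 1 point per library with its exact 95% interval for counting error. Myeloid nuclei lay at 0.0561% and 0.100% in the Sham libraries and at 1.38% and 1.29% in the contralateral libraries, while glutamatergic neurons lay between 27.4% and 29.8% in all 4.

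Other glia were also more frequent contralaterally, but by less. OPCs, the dividing cells that make new oligodendrocytes, made up 1.36% and 0.997% of nuclei in Sham (L, R) against 2.43% and 2.26% in mMCAO contra and sMCAO contra. Astrocytes made up 1.69% and 1.38% in Sham against 2.38% and 2.25%, and myelinating oligodendrocytes 8.73% and 2.73% against 13.4% and 11.7%. The 2 Sham libraries differed more from each other in oligodendrocytes than Sham L differed from either contralateral library. The study reports the opposite order, with more nuclei of its mature oligodendrocyte cluster in Sham R than in Sham L. It considers that difference most likely a technical artefact. Left and right are taken from the labels here, and the reason for the opposite order was not tested. By the gate, glutamatergic neurons ranged from 27.4% to 29.8%, medium spiny neurons from 8.34% to 10.4% and GABAergic interneurons from 6.92% to 8.06% over the 4 libraries. With clusters in place of the gate, glutamatergic neurons made up a mean of 44.1% in Sham and 34.6% contralaterally. Single neuron clusters moved in both directions, doublets included. An unnamed cluster with Prlr and Stac among its leading genes held 1078 and 1255 nuclei in Sham (L, R) and 1675 and 1672 contralaterally. A medium spiny cluster led by Htr4, Sv2c and Drd3 held 264 and 405 against 140 and 33. Whether the libraries differed in the brain regions captured, and its part in the shares of glia, was not tested. With a stricter gate the mean share of OPCs was 3.78 times as high contralaterally as in Sham, and with clusters 1.57 times. The median astrocyte held 764 UMIs in Sham L and 609 in Sham R against 1008.5 in mMCAO contra and 891 in sMCAO contra, so the depth of glial nuclei moved with their share, and its part in the result was not tested.

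Myeloid nuclei of the contralateral hemisphere carried the genes of resident microglia. Summed over 26 homeostatic microglia genes they held 23304 CPM (UMIs per 1000000 UMIs of the class) in mMCAO contra and 17714 CPM in sMCAO contra, against 18699 in Sham L (exact Poisson interval 15491 to 22376) and 14260 in Sham R (11948 to 16889). Cx3cr1, the fractalkine receptor of microglia, stood at 651 CPM from 107 UMIs and 403 CPM from 49 UMIs contralaterally, and P2ry12, a purine receptor that guides microglial processes, at 347 and 271 CPM. Sall1, a transcription factor of microglial identity, stood at 262 and 197 CPM, and Selplg, a ligand of selectins, at 450 and 345 CPM. Both genes were lower in the infarcted hemispheres, at 162 and 88.7 CPM for Sall1 and 141 and 107 CPM for Selplg in mMCAO ipsi and sMCAO ipsi. With only 6364 and 9397 myeloid UMIs in Sham L and Sham R, most single genes could not be compared with Sham at this depth. Any marker of the gate that is on a list stayed in the sum of that list. Since the nuclei were selected by myeloid markers, the level of the microglia sum can in part reflect the gate.

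Summed disease-associated genes were higher in contralateral than in Sham myeloid nuclei and lower than in those of the infarcted hemispheres. The 36 disease-associated and phagocyte genes summed to 1100 CPM in Sham L (442 to 2266), 1277 in Sham R (660 to 2231), 2708 in mMCAO contra (2463 to 2972) and 3962 in sMCAO contra (3616 to 4332). Both contralateral intervals lay above both Sham intervals, and both lay below the infarcted hemispheres at 4691 and 9232 CPM. Positive changes of this list were also seen outside myeloid nuclei, as medians over the genes tested. Such a median cannot be set beside a sum of CPM in size. The median log2 fold change of the list was 0.25 in glutamatergic neurons, 0.04 in medium spiny neurons and 0.30 in interneurons, from 13 to 19 genes tested. The value in medium spiny neurons was near the 0.01 over all their genes. In astrocytes, OPCs and oligodendrocytes the median was 0.50, 0.41 and 0.32, from 5, 6 and 14 genes. Spp1, which encodes the secreted protein osteopontin, was at 0 UMIs in both Sham libraries and at 79.1, 288, 299 and 721 CPM in mMCAO contra, sMCAO contra, mMCAO ipsi and sMCAO ipsi. Gpnmb, a glycoprotein of lipid-laden phagocytes, stood at 103, 279, 412 and 882 CPM in the same order, from 17 and 34 UMIs contralaterally. For Spp1 the Sham count of 0 in both libraries together has an exact 95% interval that reaches 234 CPM, which is above the level in mMCAO contra and within the interval of sMCAO contra (200 to 400 CPM).

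Cst3, a secreted protease inhibitor that microglia make in quantity, was the clearest single gene of the microglia list contralaterally: the 2 libraries together held 780 CPM (681 to 889, 223 UMIs), against 127 CPM (15.4 to 458, 2 UMIs) in Sham and 358 CPM in the infarcted hemispheres. The 22 complement and MHC class I genes summed to 314 and 639 CPM in Sham and to 1765 and 1636 CPM contralaterally. Cst3 was picked out after its values were seen. It was also called higher in glutamatergic neurons, medium spiny neurons and interneurons, so its rise was not particular to myeloid nuclei.

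Genes of other immune cells were summed as well. The 16 macrophage genes summed to 0 CPM in both Sham libraries and to 158 and 296 CPM contralaterally. Of these sums Mrc1, a mannose receptor of border macrophages, made up 54.8 and 90.4 CPM. The exact intervals of the Sham sums reach 580 CPM in Sham L and 393 CPM in Sham R, above both contralateral sums. By these intervals the contralateral sums could not be told from Sham. In mMCAO ipsi and sMCAO ipsi the macrophage genes summed to 181 (156 to 210) and 556 CPM. The sum in sMCAO contra thus lay above that in mMCAO ipsi, with overlapping intervals (207 to 410 CPM in sMCAO contra). The 11 neutrophil genes came to 48.7 and 41.1 CPM contralaterally, each from 1 gene, and to 56.5 and 97.5 CPM in the infarcted hemispheres. The 13 lymphocyte genes came to 146 CPM in mMCAO contra (93.6 to 217) and 16.4 CPM in sMCAO contra, each from 2 genes, against 53.5 (40.2 to 69.9) and 32.9 CPM in the infarcted hemispheres. In the clusters, 92.6% and 85.6% of the contralateral myeloid nuclei belonged to a cluster led by Lyn and Dock8, and 3.16% and 8.33% to a cluster led by Lrmda, Lilrb4 and Gpnmb that held 13.8% and 47.9% of the myeloid nuclei of the infarcted hemispheres. Myeloid droplets carried neuronal genes too: the 36 neuronal genes used to follow free RNA summed to 39598 and 43844 CPM in Sham and to 30072 and 34976 CPM contralaterally.

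Cell cycle transcripts were counted in contralateral myeloid nuclei. After every nucleus had been thinned to 500 UMIs, 15.8% of myeloid nuclei in mMCAO contra (10.9 to 21.8%) and 33.3% in sMCAO contra (25.4 to 42.1%) held at least 2 UMIs of S- and G2/M-phase genes, against 47.4% and 35.1% in mMCAO ipsi and sMCAO ipsi. In glutamatergic neurons, which do not divide, the share was 0.806% to 1.03% in the 4 libraries, at median depths of 3067 to 4875 UMIs before thinning. Vascular nuclei held 15.1% and 24.0% by the same measure in Sham and 19.4% and 8.51% contralaterally, so the myeloid share in mMCAO contra was no higher than that of Sham vascular nuclei. The unthinned shares were 22.1% and 40.2% for the contralateral myeloid nuclei and 21.2% to 36.3% for the deeper glutamatergic neurons. Sham L had 0 such nuclei of 7 and Sham R 1 of 13, with exact 95% intervals that reach 41.0% and 36.0%, so the myeloid share could not be told from that of Sham. Mki67, a nuclear protein of dividing cells, was seen with 13 UMIs in mMCAO contra and 33 in sMCAO contra, and Top2a, the topoisomerase of dividing cells, with 15 and 23.

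**Figure D2:**
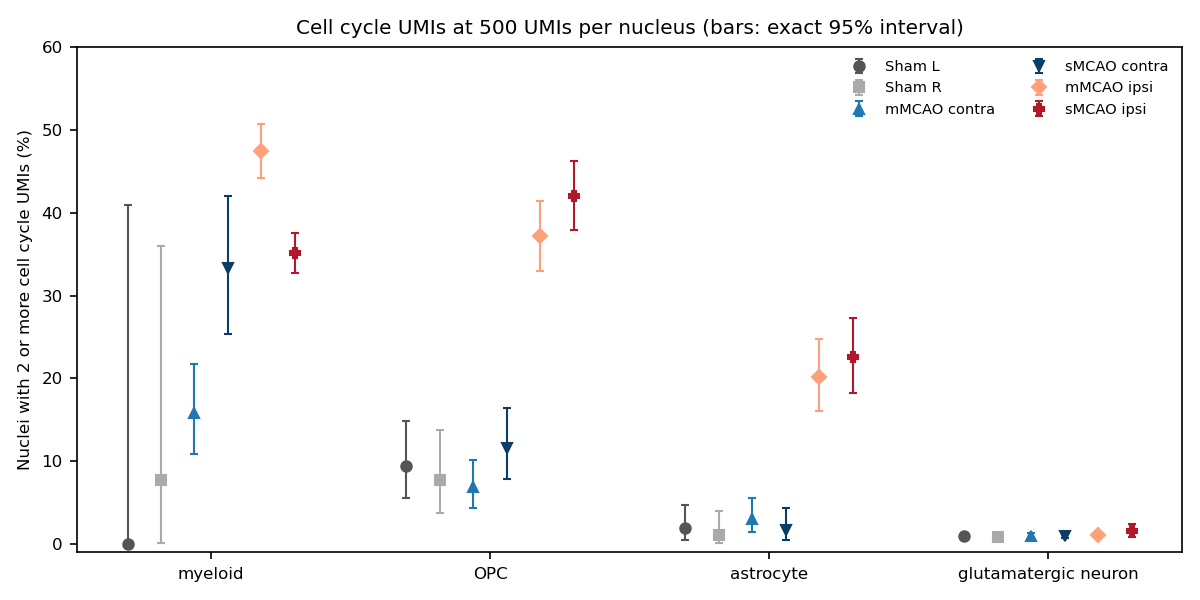
Share of nuclei with at least 2 cell cycle UMIs after thinning to 500 UMIs (percent), by class and library, with exact 95% intervals for counting error. Contralateral myeloid nuclei lay at 15.8% and 33.3%, while contralateral OPCs and astrocytes lay far under those of the infarcted hemispheres.

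OPCs and astrocytes of the contralateral hemisphere overlapped with Sham in this share. OPCs held 9.47% and 7.75% cycling nuclei in Sham and 6.87% and 11.6% contralaterally, with overlapping libraries, against 37.1% and 42.0% in the infarcted hemispheres. Astrocytes held 1.90% and 1.12% in Sham and 3.05% and 1.73% contralaterally, against 20.2% and 22.5%.

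Gene expression was compared in the 7 classes with at least 20 nuclei in each of the 4 libraries, which left out myeloid and ependymal nuclei. UMIs were summed per class and library and tested with edgeR's quasi-likelihood test. A gene was called at a Benjamini-Hochberg adjusted p under 0.05 over all genes of the class together with a log2 fold change of 0.6 or more in either direction. Levels are CPM scaled by edgeR's TMM factors unless plain CPM of the class total is stated. Classes of a library share its preparation, so the classes are not independent of each other.

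In glutamatergic neurons, the excitatory projection neurons of cortex and deep grey matter, 294 of 13916 genes were higher and 67 lower contralaterally, which is 2.59% of the genes tested, 2.11% higher and 0.481% lower. Of 30 activity-regulated genes tested, 7 were called higher and 1 lower. Their median log2 fold change was 0.54, against 0.01 over all genes. The libraries did not overlap in 18 of them toward higher levels and 3 toward lower, where 29.0% and 26.8% of all genes did so.

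Scg2 encodes secretogranin II, a precursor of peptides in dense core vesicles. It stood at 6.16 and 7.46 CPM in Sham (L, R), and 10.6 and 13.9 in mMCAO contra and sMCAO contra. Both contralateral libraries lay above both Sham libraries, with a log2 fold change of 0.84 ± 0.16 (SE) and an adjusted p of 0.00287 (edgeR). Vgf, an activity-induced precursor of neuropeptides, stood at 3.76, 5.00, 6.54 and 8.69 CPM in the same order (0.79 ± 0.20, edgeR adjusted p = 0.0151). Nr4a2, an orphan nuclear receptor induced by calcium entry, stood at 5.85 and 6.64 CPM in Sham and 10.3 and 11.1 contralaterally (0.78 ± 0.15, edgeR adjusted p = 0.00252). In sMCAO ipsi it was at 3.17 CPM, below both Sham libraries, whereas Scg2 and Vgf there reached 16.02 and 14.7 CPM.

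The promoters of these 3 genes are shown because activity-regulated genes are known for the cAMP response element, which CREB binds. They are the 250 bases before the start of the gene in RefSeq, genome build GRCr8, on the strand of the gene, with the element TGACGTCA or its short form TGACG, on either strand, in capitals.
Scg2, chr9:88256867-88257116, minus strand: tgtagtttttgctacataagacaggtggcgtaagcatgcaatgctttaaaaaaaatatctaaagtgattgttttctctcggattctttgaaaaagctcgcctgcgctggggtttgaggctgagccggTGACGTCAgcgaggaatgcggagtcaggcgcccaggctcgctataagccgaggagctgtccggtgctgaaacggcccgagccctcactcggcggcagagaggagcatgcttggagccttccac
Vgf, chr12:25277021-25277270, minus strand: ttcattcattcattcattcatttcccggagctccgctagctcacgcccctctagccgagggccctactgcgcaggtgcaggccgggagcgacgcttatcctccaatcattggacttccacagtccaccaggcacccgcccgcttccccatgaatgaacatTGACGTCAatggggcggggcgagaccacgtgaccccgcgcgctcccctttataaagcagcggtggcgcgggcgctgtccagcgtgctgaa
Nr4a2, chr3:62104888-62105137, minus strand: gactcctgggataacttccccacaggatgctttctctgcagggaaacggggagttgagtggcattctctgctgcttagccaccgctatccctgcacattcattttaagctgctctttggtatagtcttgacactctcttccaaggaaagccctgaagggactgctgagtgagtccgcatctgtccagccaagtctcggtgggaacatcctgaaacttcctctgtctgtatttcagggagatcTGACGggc
Scg2 carried the full element from 123 to 116 bases before its start and Vgf from 90 to 83. Nr4a2 carried no full element and 1 copy of its short form. Over windows of 300 bases that also hold 50 bases after the start, 1.83% of all 33469 promoters held the full element and 21.2% the short form, which the full element includes. Of the 7 activity-regulated genes called higher, 3 held the full element (Scg2, Vgf and Btg2) and 5 the short form (also Nr4a1 and Nr4a2), against 6 and 16 of the 26 listed genes with a promoter in the table. These are matches of letters and not measured binding.

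The other 4 genes called higher had smaller changes or, for Dusp6, a larger change with a larger SE. Ptgs2, the inducible cyclooxygenase, stood at 4.87 and 4.35 CPM in Sham and 7.43 and 7.01 CPM contralaterally (log2 fold change 0.65), and at 15.6 and 36.3 CPM in the infarcted hemispheres. Dusp6, a phosphatase that switches off ERK signalling, had the largest change of the list from the lowest level, 0.801 and 0.820 CPM in Sham and 2.40 and 1.52 contralaterally (1.32 ± 0.38, edgeR adjusted p = 0.0302). Nr4a1 and Btg2, an immediate early receptor and an early growth arrest gene, were called at 0.60 and 0.66 and are named here after their values were seen. Both were nearer to Sham in sMCAO contra: Nr4a1 stood at 7.45 and 9.27 CPM in Sham, 14.2 in mMCAO contra and 10.4 in sMCAO contra. Per1, a clock gene that activity also induces, moved the other way, from 7.82 and 8.37 CPM to 5.17 and 4.95 CPM (-0.67 ± 0.16, edgeR adjusted p = 0.0133). Homer1, a scaffold of glutamate receptors with an activity-induced short form, stood at 369 and 380 CPM in Sham and 333 and 348 contralaterally and was not called (edgeR adjusted p = 0.0884).

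**Figure D3:**
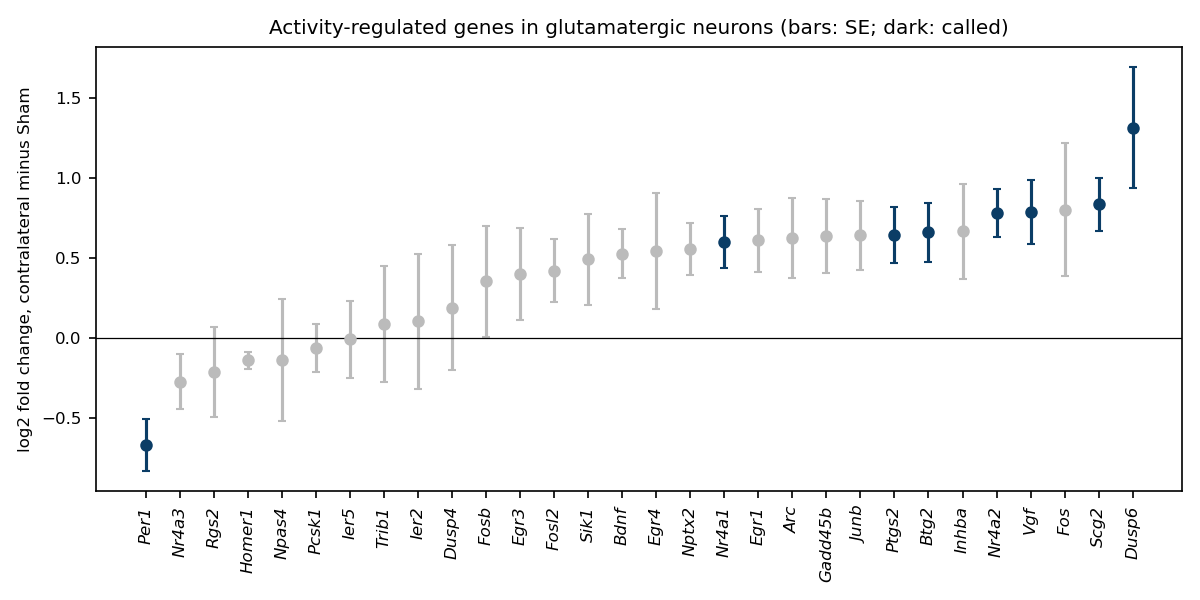
Log2 fold change, contralateral minus Sham, of the 30 activity-regulated genes tested in glutamatergic neurons, with standard errors as bars. The 8 dark points are the called genes, from Per1 at -0.67 to Dusp6 at 1.32, and 23 of the 30 points lie above 0.

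Of 11 neuropeptide genes tested in glutamatergic neurons 3 were called higher and none lower, with a median log2 fold change of 0.64. Scg2 and Vgf are on this list and on the activity-regulated list, so their calls are counted in both. Among the genes called in several classes, Nnat, which encodes the small membrane protein neuronatin, stood at 8.07 and 10.9 CPM in Sham and 16.4 and 23.6 CPM contralaterally (1.07 ± 0.17, edgeR adjusted p = 0.00052). Pcsk1n, an inhibitor of the convertase that cuts neuropeptide precursors, stood at 11.9 and 16.9 against 29.3 and 29.6 CPM (1.05). Atp6v0c, a subunit of the proton pump that acidifies vesicles and lysosomes, stood at 13.7 and 15.7 against 26.9 and 31.6 CPM (0.99), and Psap, the precursor of lysosomal saposins, at 32.3 and 34.0 against 51.5 and 56.7 CPM (0.70). Fth1, the heavy chain of the iron store ferritin, stood at 11.4 and 13.8 against 22.5 and 29.6 CPM (1.04 ± 0.13, edgeR adjusted p = 0.000125), and further up at 30.7 and 79.3 CPM in the infarcted hemispheres.

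Of 68 ribosomal protein genes 20 were called higher and none lower, 63 had a positive change, and the median log2 fold change was 0.43. Rps2 stood at 6.34 and 8.28 CPM in Sham against 13.6 and 15.5 CPM (0.998), and Rpl29 was higher by 1.05. Reads of ribosomal protein genes can be split with their many pseudogenes, which makes single values uncertain. Of 67 nuclear-encoded genes of the respiratory chain 5 were called higher, with a median of 0.19, among them Ndufc1 of complex I at 24.7 and 34.2 against 46.5 and 44.7 CPM (0.65). Over all nuclei of a library, ribosomal protein genes took 0.0481% and 0.0544% of UMIs in Sham and 0.0739% and 0.0755% contralaterally, so this shift was seen in whole libraries, and the part of tissue handling or RNA quality in it was not tested. The mitochondrial share was 0.0876%, 0.0859%, 0.0828% and 0.125% in Sham L, Sham R, mMCAO contra and sMCAO contra.

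Cdk10, a cyclin-dependent kinase, was the gene called higher with a mean of at least 50 CPM in glutamatergic neurons (41.4 and 48.4 against 71.3 and 78.5 CPM, 0.74 ± 0.08, edgeR adjusted p = 1.95e-05). Adamtsl3, a protein of the extracellular matrix, and Shc3, a neuronal signalling adapter, were the genes called lower at that level: Adamtsl3 stood at 78.9 and 71.8 against 50.2 and 48.5 CPM (-0.61) and Shc3 at 65.0 and 68.1 against 45.2 and 38.9 CPM (-0.65). Nek5, a kinase that was also called lower in medium spiny neurons, fell from 7.88 and 6.15 CPM to 1.83 and 1.60 CPM (-2.02 ± 0.23). Of 66 potassium channel genes 4 were called higher, with a median of 0.02 over the list. They included Kcnj11, the pore of the ATP-sensitive channel, at 1.79 and 2.95 against 4.75 and 5.26 CPM (1.11 ± 0.25, edgeR adjusted p = 0.00837), and Kcnq1, which at 13.8, 12.1, 15.1 and 29.95 CPM owed its call mostly to sMCAO contra. Gfap, the astrocyte filament, was called at 2.48 in glutamatergic nuclei from 6, 2, 20 and 33 UMIs, and it moved the same way in astrocytes.

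The named genes, chosen because they were called over the whole class, were also followed by cluster. Within 11 clusters of glutamatergic nuclei with at least 50 nuclei in every library, both contralateral libraries exceeded both Sham libraries in 7 clusters for Scg2, 8 for Vgf, 8 for Nnat, 4 for Nr4a2, 10 for Rps2, 10 for Atp6v0c, 10 for Kcnj11 and 8 for Fth1. Shc3 was lower in 10 and Per1 in 5 of the 11 clusters. Clusters hold fewer UMIs than the class, so low genes vary more in them. Over the whole class 29.0% of all genes lay higher and 26.8% lower without overlap, and the share within single clusters is not given here. The clusters are parts of the nuclei that gave the calls, so these counts are not separate evidence. In glutamatergic neurons no gene was called among 28 glutamate receptor genes, 18 GABA receptor and chloride transport genes, 20 heat shock genes, 16 interferon-stimulated genes or 15 stress response genes. With 2.59% of all genes called, lists of this size can lack a call without being unchanged. The last 4 lists had medians of -0.05, -0.04, 0.14 and -0.09 in this order, against 0.01 over all genes. The glutamate receptor genes lay mostly below 0, with 24 of 28 negative and a median of -0.16, and so did the 36 neuronal genes used to follow free RNA (34 negative, median -0.20).

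Medium spiny neurons are the projection neurons of the striatum, and those of the indirect pathway express the opioid precursor Penk and the dopamine receptor Drd2. In this class 85 of 10840 genes were higher and 60 lower contralaterally (1.34% in all, 0.784% and 0.554%). Penk, the precursor of enkephalin, changed most among the genes called higher with a mean of at least 50 CPM: it stood at 29.4 and 36.2 CPM in Sham (L, R), and 72.6 and 77.9 in mMCAO contra and sMCAO contra. Both contralateral libraries were about as high as the infarcted hemispheres, at 75.2 and 94.9 CPM, and the log2 fold change was 1.20 ± 0.13 (edgeR adjusted p = 6.63e-11). Gpr6, a receptor of indirect pathway neurons, stood at 4.50 and 5.54 against 10.6 and 10.8 CPM (1.09, edgeR adjusted p = 0.0271). Of 6 indirect pathway genes all 6 had a positive change and 2 were called, and none of 6 direct pathway genes was called. Tac1, the substance P precursor of the direct pathway, stood at 37.2, 35.1, 46.8 and 38.6 CPM (0.26, edgeR adjusted p = 0.33).

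The makeup of the class moved with these genes. A cluster with Rgs9, Rarb, Dach1 and Drd2 as its leading genes held 47.9% and 39.5% of medium spiny neurons in Sham (L, R) against 56.8% and 62.3% in mMCAO contra and sMCAO contra. Within that cluster Penk stood at 45.2 and 52.4 plain CPM in Sham (76 and 57 UMIs) and 99.5 and 99.0 contralaterally (284 and 167 UMIs). Within another large cluster it stood at 17.7 and 25.4 against 34.9 and 59.5 plain CPM. Penk was low in droplets of other classes, for example at 15.04, 11.2, 10.2 and 14.98 plain CPM in oligodendrocytes.

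Ptpn5, the striatal phosphatase STEP, stood at 225 and 203 CPM in Sham and 301 and 391 CPM contralaterally (0.67 ± 0.08, edgeR adjusted p = 8.26e-09). Nnat (13.8 and 20.7 against 32.7 and 45.4 CPM, 1.16), Dtx3, a ubiquitin ligase (46.2 and 57.7 against 81.9 and 88.0 CPM, 0.71), Psap (0.79) and Fth1 (1.01) were also called higher. Scg2 stood at 27.6, 27.4, 34.3 and 39.7 CPM and was not called (0.41, edgeR adjusted p = 0.122), and none of 20 activity-regulated genes was called in medium spiny neurons. Of these 20 genes 15 had a positive change, with a median of 0.40 against 0.01 over all genes. A lack of calls in a list of this size does not show that it was unchanged.

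Among the genes called lower in medium spiny neurons were several that these neurons share with droplets of other cells. Dpp10, a partner of Kv4 potassium channels, stood at 3125 and 3712 CPM in Sham and at 1780 and 1647 CPM contralaterally (-0.99 ± 0.06, edgeR adjusted p = 1.52e-22). In plain CPM, Sham medium spiny neurons held 3053 and 3665 of it, oligodendrocytes 3212 and 2698, astrocytes 3838 and 3732 and glutamatergic neurons 15748 and 16087. In contralateral oligodendrocytes it stood at 1622 and 1458 plain CPM. In interneurons it stood at 3520 and 3665 against 3244 and 3260 plain CPM. Many myelin genes outside the gate were lower too: 5 of 18 were called, 14 of 18 had libraries that did not overlap in that direction (23.0% of all genes did), and the median was -0.58. The whole list summed to 891 and 915 plain CPM in Sham and 776 and 836 contralaterally. The oligodendrocyte marker list, however, summed to 1195 and 1169 against 1105 and 1288 plain CPM in the same nuclei, with overlapping libraries. Aspa, the aspartoacylase of oligodendrocytes, fell from 8.99 and 13.3 to 2.69 and 3.60 CPM (-1.84). Shisa6, an auxiliary subunit of AMPA receptors (117 and 111 against 55.0 and 60.9 CPM, -0.99), and Zeb2, a transcription factor (69.3 and 73.2 against 37.7 and 43.6 CPM, -0.83), were called lower as well. Free RNA was not subtracted in neuron classes, so its part in the changes of Dpp10, the myelin genes, Shisa6 and Zeb2 was not tested.

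GABAergic interneurons, the local inhibitory neurons, had 130 of 10985 genes higher and 36 lower (1.51% in all, 1.18% and 0.328%). Neuropeptide genes led: 4 of 9 were called higher, with a median of 0.90. Scg2 stood at 18.2 and 31.0 CPM in Sham (L, R), and 59.2 and 60.9 in mMCAO contra and sMCAO contra, a log2 fold change of 1.35 ± 0.16 (edgeR adjusted p = 5.84e-07). Vgf stood at 9.28 and 10.0 against 23.9 and 25.9 CPM (1.37 ± 0.23, edgeR adjusted p = 0.000122), while mMCAO ipsi was at 7.62 CPM. Scg2 and Vgf are also on the activity-regulated list, of which 2 of 10 genes tested in interneurons were called higher. That list had 5 positive and 5 negative changes here, with a median of 0.02 against 0.01 over all genes. Penk stood at 7.95 and 8.51 against 15.1 and 27.5 CPM (1.30). Its call was lost with the thinned gate, with clusters in place of the gate and with all 6 libraries in the fit. DESeq2 without independent filtering did not call it either. A cluster named medium spiny neurons held more of the gated interneurons contralaterally, and its part in the change of Penk was not tested. Both contralateral libraries exceeded both Sham libraries for Scg2 in all 4 clusters that held enough gated interneurons and for Vgf in 3 of the 4, and of these clusters 2 were named interneurons, 1 medium spiny neurons and 1 had no name. Over the whole class 24.0% of all genes did so, and the clusters are parts of the nuclei that gave the calls. In oligodendrocyte droplets Scg2 stood at 18.5, 26.2, 12.7 and 29.96 plain CPM and Vgf at 5.78, 0, 3.01 and 5.99, with no difference in 1 direction between the groups.

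Further genes called higher in interneurons were Cx3cl1, the membrane-bound ligand of the microglial receptor Cx3cr1 (25.2 and 22.0 against 38.8 and 43.4 CPM, 0.77 ± 0.16, edgeR adjusted p = 0.00221), Gapdh of glycolysis (0.87), Chst9, a sulfotransferase (57.7 and 55.5 against 83.1 and 136 CPM, 0.89), and Tox, a nuclear factor (65.95 and 44.0 against 78.3 and 115 CPM, 0.72). Ddx46, a splicing helicase (110 and 119 against 71.3 and 78.0 CPM, -0.62), and Rspo2, a Wnt co-activator (73.2 and 65.1 against 45.9 and 46.2 CPM, -0.60), were called lower. Nr1d1, a repressor of the clock, fell from 21.2 and 18.0 to 10.8 and 13.1 CPM (-0.76, edgeR adjusted p = 0.0424). Chst9 led a cluster named medium spiny neurons that held 9.22% and 8.59% of gated interneurons in Sham and 10.7% and 12.4% contralaterally. Its change was 0.0048 with the gate after thinning, and its call was lost with clusters in place of the gate and without sMCAO contra. The makeup of this class moved as well: 1 cluster held 43.2% and 46.9% of interneurons in Sham and 35.7% and 35.9% contralaterally, and another 7.36% and 8.71% against 12.9% and 14.5%.

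**Figure D4:**
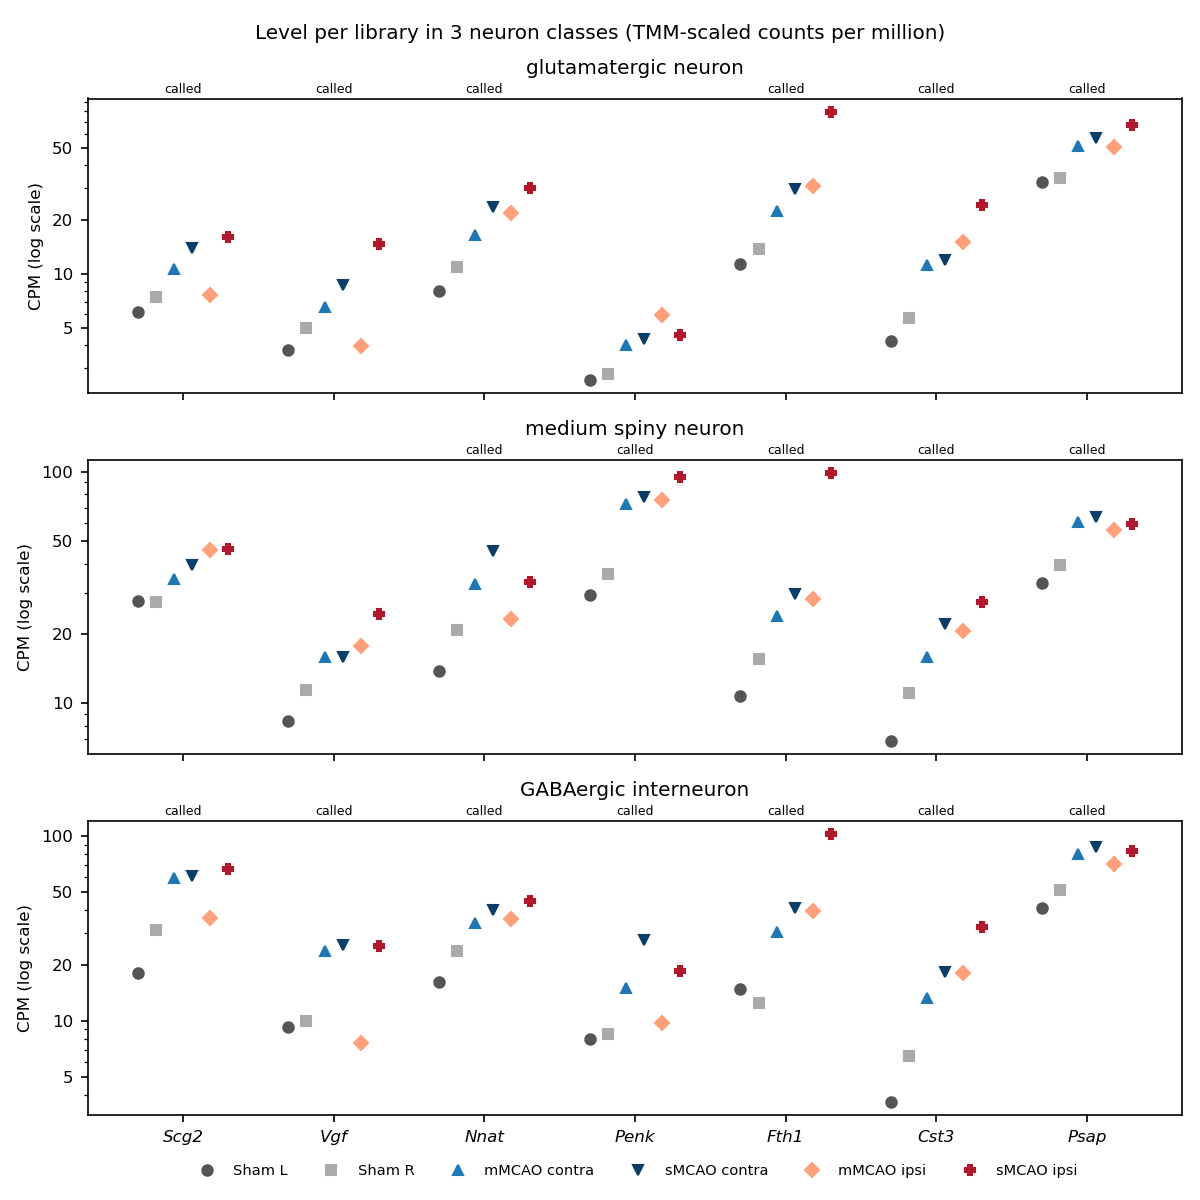
TMM-scaled CPM of 7 genes (log scale) in 3 neuron classes, 1 point per library, with called genes marked. For Scg2 and Vgf in interneurons and Penk in medium spiny neurons both contralateral libraries lie above both Sham libraries, while mMCAO ipsi lies below both Sham libraries for Vgf in interneurons.

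Genes called higher in all 3 neuron classes included Nnat, Cst3, Bmyc, Atp6v0c, Ubb, Kcnq1, Pcsk1n, Dipk1b, Psap and Cdk10, and Fth1 was called in these and in oligodendrocytes. Glutamatergic and medium spiny neurons shared 38 genes called higher, 12.9% of the 294 and 44.7% of the 85, and glutamatergic neurons and interneurons shared 44, 14.97% of the 294 and 33.8% of the 130. These comparisons use the same libraries. Fth1 and Psap were higher in droplets of most classes: in oligodendrocytes Fth1 stood at 39.3 and 59.9 plain CPM in Sham and 77.7 and 96.9 contralaterally, and in astrocytes Psap at 107 and 96.4 against 126 and 133. Tested directly, the differences between the changes of Scg2 and Vgf in interneurons and glutamatergic neurons did not pass (differences of 0.49 and 0.54 log2 units, edgeR adjusted p = 0.478 and 0.602), nor did that of Penk between medium spiny and glutamatergic neurons (0.59, edgeR adjusted p = 0.476). A missed threshold does not show that the changes were alike.

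Oligodendrocytes had the most genes called lower, 284 of 8613, and 57 higher (3.96% in all, 3.3% and 0.662%). Most of the named ones are neuronal. Of 35 neuronal genes used to follow free RNA 28 were called lower and 34 had libraries that did not overlap in that direction, against 23.1% of all genes, with a median of -0.82. Nrxn3, a presynaptic adhesion protein, fell from 2505 and 2581 CPM to 1167 and 1184 CPM (-1.11), and 11 of 26 glutamate receptor genes and 9 of 16 sodium and calcium channel genes were called lower. The pan-neuronal markers themselves, as a percent of their level in the neurons of the same library, stood at 23.7% and 24.1% in oligodendrocyte droplets of Sham and at 15.6% in both contralateral libraries. Sham droplets thus carried more neuronal RNA. After an estimate of free RNA had been subtracted, 56 genes were called in oligodendrocytes, all of them lower. Nrxn3 was still called there. No count was allowed to become negative in that subtraction, and over the alternatives the log2 fold change of Nrxn3 reached -12.2. The part of this cut, and of free RNA left after it, in the 56 calls was not tested.

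**Figure D5:**
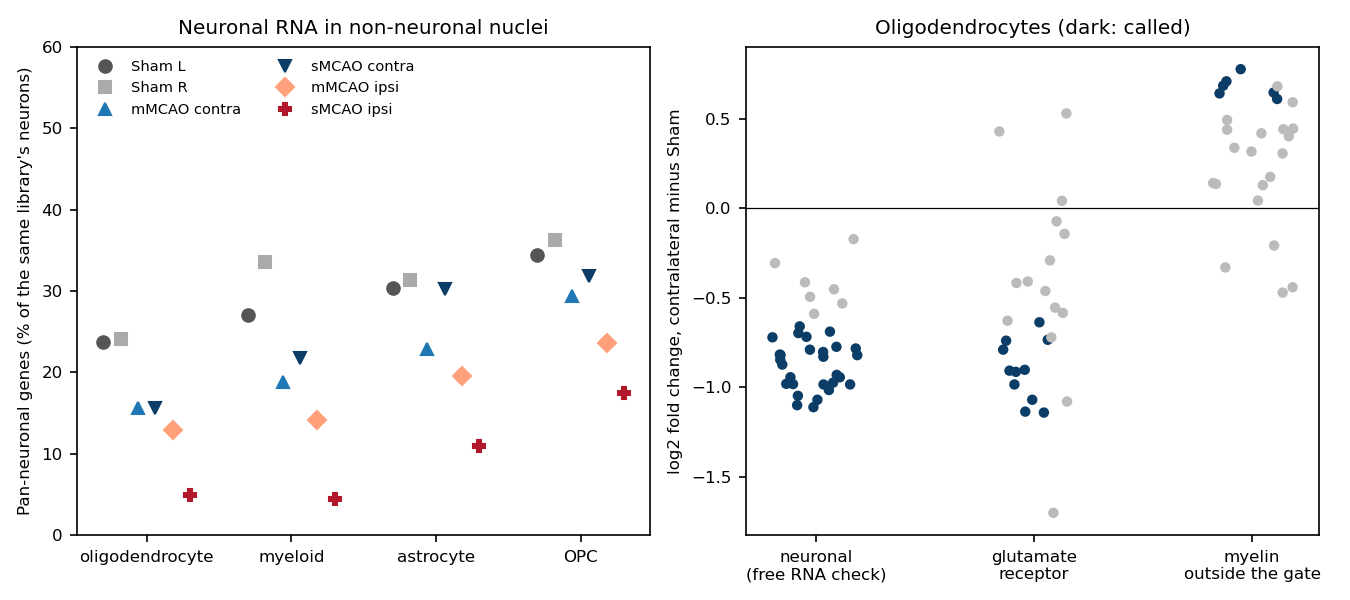
Pan-neuronal marker UMIs in non-neuronal classes, as a percent of their level in the neurons of the same library, 1 point per library. Oligodendrocyte droplets lay at 23.7% and 24.1% in Sham and at 15.6% in both contralateral libraries.

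Myelin genes outside the gate moved upward in oligodendrocytes. Of 26 tested 6 were called higher and none lower, 22 had a positive change, and the median was 0.41. Cldn11, the tight junction protein of myelin, stood at 373 and 384 CPM in Sham against 529 and 712 CPM contralaterally (0.71 ± 0.14, edgeR adjusted p = 0.00446). Cnp, an enzyme of non-compact myelin, stood at 103 and 92.2 against 163 and 159 CPM (0.69), Apod, a lipid carrier, at 397 and 417 against 576 and 697 CPM (0.65), and Mal, a lipid raft protein, at 289, 148, 354 and 478 CPM (0.78). Scd2, a fatty acid desaturase, stood at 169 and 133 against 262 and 330 CPM (0.89). After free RNA had been subtracted the log2 fold changes were 0.59 for Cldn11, 0.57 for Cnp, 0.53 for Apod, 0.69 for Mal and 0.82 for Scd2, and none of the 5 passed the test (edgeR adjusted p from 0.103 for Scd2 to 0.364 for Mal). The makeup of oligodendrocytes moved as well. A cluster led by Tf, Rnf220, Hapln2 and Apod held 26.2% and 23.7% of them in Sham (L, R) against 33.8% and 37.4% contralaterally. A cluster led by Bcas1, Tcf7l2 and Enpp6 held 4.96% and 14.4% against 3.35% and 3.17%. The part of makeup in the changes of myelin genes was not tested.

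In OPCs 18 of 4525 genes were higher and 54 lower (1.59% in all, 0.398% and 1.19%), and 36 of the 54 were also called lower in oligodendrocytes. Of 24 glutamate receptor genes, many of which OPCs express themselves, 5 were called lower. Grm3, a metabotropic receptor, stood at 418 and 510 CPM in Sham and 206 and 251 CPM contralaterally (-1.02). Epha3, an ephrin receptor, fell most among the genes at that level, from 146 and 175 to 37.7 and 39.1 CPM (-2.04). Among genes called higher were Ntn1, the guidance cue netrin 1 (162 and 167 against 350 and 254 CPM, 0.91), Tgfa, a ligand of the EGF receptor (78.5 and 47.8 against 148 and 163 CPM, 1.22) and Abhd2, a lipase (73.2 and 39.8 against 168 and 134 CPM, 1.35). The oligodendrocyte marker list summed to 2681 and 2369 plain CPM in Sham OPC droplets and to 1652 and 1861 contralaterally. Of 17 myelin genes outside the gate 2 were called lower, with 14 negative and 3 positive changes (median -0.58). Their whole list summed to 6050 and 4449 against 4530 and 4801 plain CPM, with overlapping libraries. The part of oligodendrocyte RNA in the fall of Grm3 was not tested. Pan-neuronal markers stood at 34.4%, 36.3%, 29.4% and 31.9% of the neuronal level in OPC droplets, and 8 of 35 neuronal genes used to follow free RNA were called lower. After it had been subtracted 6 genes were called, all lower, and neither Epha3 nor Tgfa passed (edgeR adjusted p = 0.230 for Tgfa).

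In astrocytes 2 of 4561 genes were called (0.0439%), 1 in each direction (0.0219% each). This class held far fewer UMIs than the neuron classes, so few calls do not show that it was little changed. Gfap, the intermediate filament that reactive astrocytes make in excess, stood at 155 and 152 CPM in Sham (L, R), 391 in mMCAO contra and 730 in sMCAO contra, and at 2557 and 4243 CPM in mMCAO ipsi and sMCAO ipsi. The contralateral libraries lay above Sham and well below the infarcted hemispheres (1.85 ± 0.31, edgeR adjusted p = 0.0230). The change was 1.85 with free RNA subtracted too, without passing the test there (edgeR adjusted p = 0.357). Pcsk2, a neuropeptide convertase of neurons, fell from 230 and 235 to 73.5 and 70.2 CPM (-1.68), and it was lower in oligodendrocyte droplets as well. None of 22 homeostatic astrocyte genes was called (median 0.09). All 11 cholesterol synthesis genes tested in astrocytes had a negative change, with a median of -0.48, and none was called. Pan-neuronal markers stood at 30.3%, 31.3%, 22.9% and 30.3% of the neuronal level in astrocyte droplets, so sMCAO contra lay at the level of Sham L in this class.

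Vascular nuclei had no called gene among 1909 (0.0%) by edgeR's quasi-likelihood test, with 111 at an unadjusted p under 0.05, and DESeq2 called 0. A lack of calls at the low depth of this class does not show that it was unchanged.

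These calls rest on 2 libraries a group. With the infarcted hemispheres in the same fit, 28 genes were called in medium spiny neurons and 0 in the 6 other classes, and DESeq2 on the same 4 libraries called 106 genes in glutamatergic neurons, 2 in medium spiny neurons and 7 in interneurons. Independent filtering in DESeq2 left 17514 genes in medium spiny neurons without an adjusted p, and without it DESeq2 called 88, 9 and 9.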

How the data were processed

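The authors aligned the reads of a droplet-based 5' kit to the rat build mRatBN7.2 with Cell Ranger 7.0.0, counting intronic reads, and deposited raw UMI counts per nucleus for 30560 genes. The removal of free RNA described in the study's methods is not in these counts.

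Nuclei with at least 500 UMIs, 250 to 5000 genes and at most 5% mitochondrial UMIs were kept, and the 5% of each library closest to simulated doublets were left out. A nucleus entered a class with at least 3 UMIs of its markers, at least 25% of the level typical of that class and 2 times that of the next class, and non-neuronal nuclei had to stay under 0.6 of the pan-neuronal level of neurons. Gate limits were set after the data were seen. The cell class lists, the gene lists and the choice of comparisons were made with earlier results of these data known. Counts were summed per library and class, and the 2 MCAO contra libraries were tested against the 2 Sham libraries with edgeR 4.0.16 in R 4.3.3 (filterByExpr, TMM, quasi-likelihood F test, 2 residual degrees of freedom). Marker genes of the gate and mitochondrial genes stayed in the totals and out of the tests. TMM scaling lowered the median log2 change over all genes from 0.11 to 0.01 in glutamatergic neurons, and moved it by less than 0.1 in either direction in the other classes. The difference of the change between classes was tested as an interaction with the library as block. Free neuronal RNA was followed with 11 pan-neuronal markers and 36 further neuronal genes, and subtracted in an alternative as the library profile times the pan-neuronal share left in a class. Counts were not allowed to become negative in the subtraction. The test was checked on simulated data. Of simulated log2 changes of 1 it recovered 24% in astrocytes, 26% in vascular nuclei, 42% in OPCs and 53% in oligodendrocytes. In glutamatergic neurons, medium spiny neurons and interneurons it recovered 77%, 76% and 80%.

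Named genes are, per class, the 5 with the largest change in each direction among called genes with a mean of at least 50 CPM and libraries that do not overlap, up to 10 per direction called in the most classes, and, for each of 38 gene lists, up to 4 called members, with up to 2 members not called as values. Myeloid genes are given as values, and those outside these rules are marked as such. Some genes that meet the rules are not reported here. Alternatives were all 6 libraries in the fit, DESeq2 1.42.0 with and without independent filtering, RLE factors, no filter on low counts, doublets kept, a stricter gate (6 marker UMIs), a gate after thinning to 500 UMIs, Leiden clusters (leidenalg 0.10.2) as classes, free RNA subtracted, and each library left out. Python 3.11.15, NumPy 2.4.6 and SciPy 1.17.1 were used. The count of UMIs per class sets the precision: the sums ran from 46967 to 20648545 UMIs in the tested classes.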

Additional observations from a re-analysis of the deposited data

Results flagged for a closer look

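The contralateral change of some genes differed between cell classes when the difference itself was tested (edgeR, class by group interaction with the library as block, Benjamini-Hochberg adjusted p under 0.05). This was so for 162 of 4424 genes between oligodendrocytes and OPCs, for 54 of 10795 genes between medium spiny and glutamatergic neurons and for 62 of 10935 genes between interneurons and glutamatergic neurons. For astrocytes against OPCs it was 0 of 3808 by edgeR, with 251 at an unadjusted p under 0.05, and DESeq2 was not run on this difference.

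Grm3, a metabotropic glutamate receptor, stood apart in glia: it was higher in oligodendrocytes (3554 and 2847 CPM in Sham, 4806 and 4487 CPM contralaterally, log2 fold change 0.53) and lower in OPCs (-1.02), a difference of 1.58. Kcnd2, a potassium channel, and Ntrk2, the receptor of BDNF, were lower in oligodendrocytes (-1.10 and -1.38) and changed by 0.04 and 0.07 in OPCs, which express both at higher levels, so that the differences were -1.12 and -1.44. Gabrb1, a GABA receptor subunit, differed by -0.66. Aspa changed by -0.21 in oligodendrocytes, which make it, and by -1.73 in OPCs, a difference of 1.56. Summed oligodendrocyte markers were lower in contralateral than in Sham OPC droplets. The part of such RNA in the falls of Grm3 and Aspa in OPCs was not tested.

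Dpp10, Shisa6 and Zeb2 changed more in medium spiny than in glutamatergic neurons, with differences of -0.69, -0.59 and -0.81. All 3 stood at a higher level in glutamatergic neurons, where Zeb2 was at 367 and 368 CPM in Sham and 365 and 370 CPM contralaterally. Tox was higher in interneurons (0.72) and lower in glutamatergic neurons (-0.35), a difference of 1.01 (edgeR adjusted p = 0.00364).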

How the results depend on the processing

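The number of called genes depended on the fit. With all 6 libraries in the fit 0 genes were called in glutamatergic neurons, interneurons, astrocytes, OPCs and oligodendrocytes and 28, all of them also called in the 4-library fit, in medium spiny neurons. DESeq2 called 106 in glutamatergic neurons, 2 in medium spiny neurons, 7 in interneurons, 11 in OPCs and 130 in oligodendrocytes, and its independent filtering left 11082, 17514, 16725, 14256 and 14929 genes there without an adjusted p. Without that filtering, an alternative chosen after seeing the data, DESeq2 called 88, 9, 9, 1 and 78. Without the filter on low counts 11 were called in astrocytes and 40 in OPCs. With doublets kept, 95 were called in medium spiny neurons, 0 in astrocytes, 33 in OPCs and 156 in oligodendrocytes. The stricter gate gave 238 in glutamatergic neurons, 0 in astrocytes and 2 in OPCs. Gating after thinning to 500 UMIs, which kept far fewer neurons, gave 57 in glutamatergic and 39 in medium spiny neurons, 5 in interneurons, 478 in astrocytes and 15 in OPCs. Leiden clusters gave 93 in medium spiny neurons and 96 in astrocytes, and subtraction of free RNA 1 in astrocytes, 6 in OPCs and 56 in oligodendrocytes.

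Leaving out 1 library at a time gave 181 to 531 called genes in glutamatergic neurons, 84 to 185 in medium spiny neurons, 66 to 203 in interneurons, 7 to 33 in astrocytes, 19 to 70 in OPCs, 18 to 377 in oligodendrocytes and 0 to 5 in vascular nuclei. The lone library of a group was then assumed to vary like the other group. Without Sham L the counts were lowest in glutamatergic neurons, medium spiny neurons, interneurons and oligodendrocytes (181, 84, 66 and 18), and without Sham R, which leaves left hemispheres only, they were 477, 118, 198 and 84. Without mMCAO contra 19 genes were called in OPCs and 23 in astrocytes, and without sMCAO contra 33 in astrocytes. The cause of these differences was not tested.

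Differences between classes passed, for OPCs against astrocytes, for 2 genes without the filter, 26 with the thinned gate, 1 with Leiden clusters, 6 with free RNA subtracted and 0 to 9 with 1 library left out. For oligodendrocytes against OPCs it was 93 without the filter, 36 with doublets kept, 101 with the stricter gate, 54 with the thinned gate, 34 with free RNA subtracted and 11 to 112 with 1 library left out. For medium spiny against glutamatergic neurons it was 131 without the filter, 11 with the thinned gate, 107 with Leiden clusters and 38 to 65 with 1 library left out. For interneurons against glutamatergic neurons it was 129 without the filter, 120 with doublets kept, 101 with the stricter gate, 1 with the thinned gate, 36 with Leiden clusters and 70 to 153 with 1 library left out.

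The mean contralateral share over that of Sham was 24.2 for myeloid nuclei with the stricter gate and 9.41 with Leiden clusters, 3.78 and 1.57 for OPCs, 1.35 for astrocytes with Leiden clusters, and for glutamatergic neurons 1.02 with the stricter gate, 0.893 with the thinned gate and 0.785 with Leiden clusters. Of the values of 106 named genes in a class, 92 lost their call with all 6 libraries, 25 with the stricter gate and 23 to 47 with 1 library left out. DESeq2 gave 48 of them an adjusted p, of which 14 lost the call, and without independent filtering 65 of 106 lost it. With the thinned gate 50 of 90 lost it and 4 changed sign: Zeb2 (0.0083), Pcsk1n (-0.56) and Scg2 (-0.50) in medium spiny neurons and Tox (-0.0058) in interneurons. Penk in medium spiny neurons lost its call with the thinned gate, Scg2 in glutamatergic neurons with all 6 libraries and the thinned gate, and Nr4a2 there also with DESeq2 without independent filtering. Vgf in glutamatergic neurons lost its call under 7 of 13 alternatives, among them the stricter gate and DESeq2 with and without independent filtering. Gfap in astrocytes lost it with all 6 libraries, doublets kept, the stricter gate and free RNA subtracted, and Hace1 in OPCs under all 13 alternatives that gave an adjusted p. No paired analysis was possible because the contralateral and Sham libraries came from different rats.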

Other observations

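Ependymal nuclei, the ciliated lining of the ventricles, numbered 19 of 12469 in Sham L (0.152%, exact 95% interval 0.0918 to 0.238%), 6 of 12945 in Sham R (0.0463%, 0.0170 to 0.101%), 81 of 13766 in mMCAO contra (0.588%, 0.468 to 0.731%) and 45 of 10254 in sMCAO contra (0.439%, 0.320 to 0.587%). The groups did not overlap in this share either, and the part of the brain regions captured in it was not tested. Vascular nuclei, at 0.585% and 0.386% in Sham against 0.748% and 0.458% contralaterally, overlapped.

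Genes known from other settings were called in single neuron classes. Cebpb, a transcription factor of the cytokine response, was at 0.985 and 0.902 CPM in Sham and 2.21 and 2.06 CPM contralaterally in glutamatergic neurons (log2 fold change 1.17 ± 0.34, edgeR adjusted p = 0.0333), as the 1 called gene of 17 cytokine response genes. Lypd1, a modulator of nicotinic receptors, stood at 6.30 and 5.50 against 13.6 and 13.5 CPM in interneurons (1.18, edgeR adjusted p = 0.0120), and at -0.31 in medium spiny and 0.10 in glutamatergic neurons, where it was not called.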
